A study of Caenorhabditis elegans with 2 samples.

Results

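Divergent promoter pairs were examined here as binding sites of ZFP-2, a C2H2 zinc finger protein of Caenorhabditis elegans. A pair consisted of different nuclear protein-coding genes on opposite strands that are transcribed away from each other, with annotated 5′ ends 1 to 1000 bp apart. The region of a pair was the interval between the 5′ ends plus 200 bp on each side, and overlapping regions were merged. Applied to 29784 5′ ends of 19973 genes in the Ensembl annotation of WBcel235, the rule gave 1861 regions that hold 1910 gene pairs and 3749 genes, 18.8% of all. The rule used no ChIP-seq value. A region is called bound when a peak summit lay in it, and 131 of the 1861 regions (7.04%) held a summit of the thresholded peak list.

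The measurement was chromatin immunoprecipitation with sequencing (ChIP-seq) with an anti-GFP antibody, in 1 group of 2 biological replicates. Both came from hermaphrodites of strain OP534, which carries unc-119(tm4063) III and the integrated transgene wgIs534 encoding ZFP-2 with a C-terminal GFP and FLAG tag. Animals were L4 larvae, taken 52 hours after synchronization by starvation at L1. Whole animals were used, so a peak averages over all tissues, and binding of the untagged protein was not measured. There was no second condition, and the linked control was not used here.

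In a divergent arrangement a pair of genes share 1 upstream interval, and a protein bound there lies upstream of both. Such pairs are common in compact genomes, and housekeeping genes are often arranged this way. Many C. elegans transcripts are trans-spliced, meaning that a short leader replaces the first part of the transcript, so an annotated 5′ end can be the splice acceptor and not the place where transcription starts. C2H2 zinc finger proteins commonly bind DNA through arrays of fingers that each contact a few bases.

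The sequences at the strongest bound regions are shown because the rest of the account refers to them. Each is 100 bases of the WBcel235 plus strand centred on the summit, for 8 of the 10 strongest regions, named by the minus-strand gene and then the plus-strand gene. Capitals mark ACGCAG or its reverse complement, a word already known from earlier results of these data. In order of position these stretches are chrII:8561385-8561484, chrIII:5679080-5679179, chrIII:6972040-6972139, chrIII:13463063-13463162, chrIV:4445850-4445949, chrIV:11149734-11149833, chrIV:13240633-13240732 and chrV:7196612-7196711, and they are printed by falling signal.
iff-2/F54C9.14: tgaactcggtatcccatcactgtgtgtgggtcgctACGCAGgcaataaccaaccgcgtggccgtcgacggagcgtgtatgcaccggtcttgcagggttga
rpl-12/lin-54: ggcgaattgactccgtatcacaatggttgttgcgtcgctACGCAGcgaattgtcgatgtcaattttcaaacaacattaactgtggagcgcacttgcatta
ska-3/rps-12: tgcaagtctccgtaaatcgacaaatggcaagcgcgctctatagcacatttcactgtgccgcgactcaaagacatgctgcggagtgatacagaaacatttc
attf-2/F09G2.2: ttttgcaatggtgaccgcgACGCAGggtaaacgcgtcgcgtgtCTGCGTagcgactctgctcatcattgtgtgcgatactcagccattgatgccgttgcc
T27E9.2/ant-1.1: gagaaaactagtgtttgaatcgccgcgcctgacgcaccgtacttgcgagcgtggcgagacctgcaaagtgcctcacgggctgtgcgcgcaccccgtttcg
F01G4.6/pfd-1: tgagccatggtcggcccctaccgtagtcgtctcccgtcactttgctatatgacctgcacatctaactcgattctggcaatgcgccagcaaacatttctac
wapl-1/htz-1: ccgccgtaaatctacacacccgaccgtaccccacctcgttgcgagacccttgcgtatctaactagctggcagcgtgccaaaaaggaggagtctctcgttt
eef-1A.1/rfc-4: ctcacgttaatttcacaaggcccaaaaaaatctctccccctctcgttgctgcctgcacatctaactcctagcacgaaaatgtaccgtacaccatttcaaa
The other 2 of the 10, rps-19/hsr-9 and rps-15/F36A2.9, are not printed. Of the 8 printed windows 3 hold the word, and attf-2/F09G2.2 holds it once on each strand. GC content of the 8 ran from 45% in rpl-12/lin-54 and eef-1A.1/rfc-4 to 62% in T27E9.2/ant-1.1.

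The deposited peak lists held 660 thresholded peaks, 14658 peaks from the pooled replicates, and 18200 and 17770 peaks for replicates 1 and 2. The last 3 lists include background calls. Of the thresholded peaks, 642 were nuclear and 18 mitochondrial. Signal is the authors' value for each peak, and peaks were ranked by it only inside their own list. The number of reads behind a peak is unknown. Neither zfp-2 nor unc-119 is a gene of a divergent pair.

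Divergent regions were bound more often than other short intergenic regions. The 131 bound regions made up 7.04% of the 1861 (95% interval 5.92 to 8.30), against 2.49% of all 9010 divergent, tandem and convergent regions together. Tandem regions, between the 3′ end of a gene and the 5′ end of the next on the same strand, were bound in 77 of 5438 cases (1.42%). Convergent regions, between the 3′ ends of neighbouring genes, were bound in 16 of 1711 (0.935%). Regions upstream of 5′ ends in no divergent pair, called one-way here, were bound in 244 of 17180 cases (1.42%). The one-way and tandem classes overlap each other, and neither overlaps a divergent region.

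In each replicate divergent regions again had the highest share and convergent regions the lowest, while tandem and one-way regions changed places. Among the 660 strongest peaks of replicate 1, divergent regions were bound in 130 cases (6.99%), beside 2.54% of the 9010 regions. Among those of replicate 2 the count was again 130, beside 2.42%. Tandem regions stood at 1.54% and 1.27%, convergent regions at 0.877% and 1.11%, and one-way regions at 1.44% and 1.40%. The spread between replicates within a class was thus far smaller than the gap between divergent regions and each of the other 3 classes. No chance test was run over regions, since neighbouring regions and peaks are not independent. The intervals are exact Clopper-Pearson intervals that treat regions as independent and cover counting error only.

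**Figure D1:**
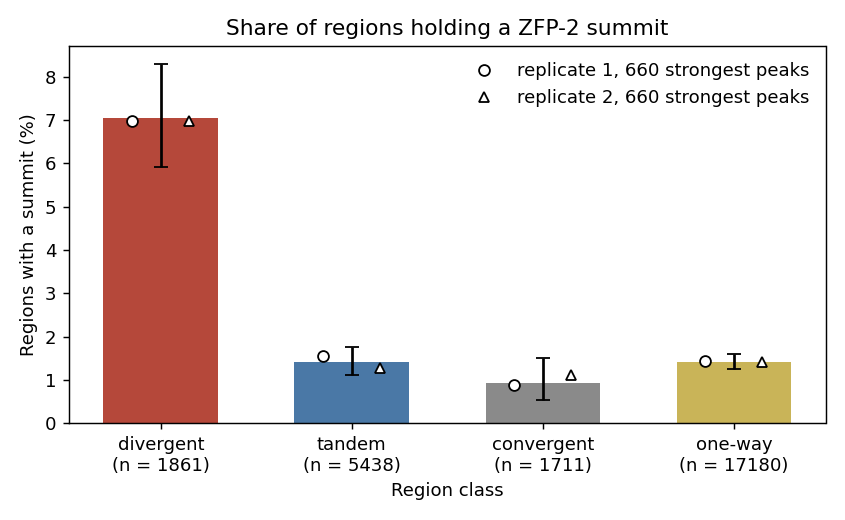
Share of regions (%) that held a thresholded summit, for divergent (7.04%), tandem (1.42%), convergent (0.935%) and one-way (1.42%) regions. Bars show the thresholded list with its exact 95% interval, and circles and triangles show the 660 strongest peaks of replicates 1 and 2, which lie close to each bar.

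Counted by summits, divergent regions cover 1.78% of the nuclear genome and held 136 of the 642 nuclear summits (21.2%). This is 76.2 summits per Mb, 11.9 times the 6.40 per Mb of the nuclear genome. Tandem, convergent and one-way regions held 18.3, 13.2 and 10.9 summits per Mb.

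Counted per region, those with the shortest intervals were bound least often. With fixed flanks, a shorter interval generally gives a smaller region for a summit to fall in, and shares per base were not compared between lengths. By the shortest interval between 5′ ends in each region, 15 of 410 regions of 1 to 250 bp were bound (3.66%), 54 of 572 of 251 to 500 bp (9.44%), 42 of 508 of 501 to 750 bp (8.27%) and 20 of 371 of 751 to 1000 bp (5.39%). The shortest class was also the lowest in replicates 1 and 2, with 15 bound regions in each. To set the classes side by side, regions were also sorted by their full span without the flanks, leaving out merged regions that span more than 1000 bp. By span, divergent regions of 1 to 250 bp were bound in 7 of 278 cases (2.52%), and the 3 longer classes in 7.87%, 8.03% and 6.64%. Tandem regions of 1 to 250 bp were likewise the lowest of their class (0.471%). In each of the 4 span classes the divergent share lay above the tandem and convergent ones.

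Bound divergent regions also reached higher signals than other sites. The strongest summit of a bound region had a signal from 84.2 to 4889, with quartiles of 104, 150 and 324. Over all 136 summits in divergent regions the median was 141. The 506 nuclear summits outside divergent regions had quartiles of 94.1, 113 and 153. Of the 25 nuclear summits with a signal above 1000, 15 lay in divergent regions, as did 11 of the 20 and 28 of the 50 strongest. Of the 207 nuclear summits below 100, 32 did.

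The same fall was seen along the whole pooled ranking. Divergent regions held 22 of the 36 nuclear summits of ranks 1 to 50 (61.1%), 31.9% of those of ranks 51 to 100 and 16.1% of those of ranks 331 to 660. Just below the thresholded set, at ranks 661 to 1320, they held 90 of 660 (13.6%). The share was 8.18% at ranks 1321 to 2640 and 2.46% at ranks 10561 to 14658, near the 1.78% of the genome that the regions cover. Tandem regions fell less, from 27.8% at ranks 1 to 50 to 6.30% in the last class.

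**Figure D2:**
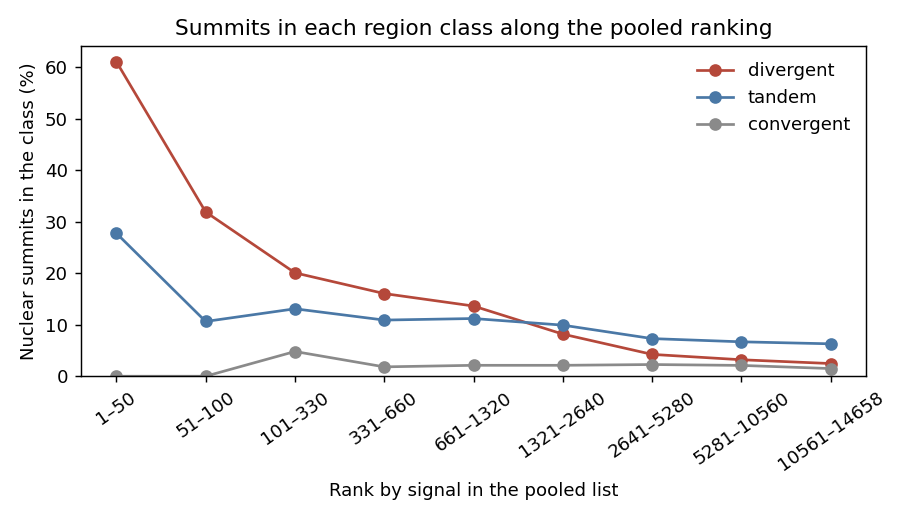
Share of nuclear summits (%) lying in divergent, tandem and convergent regions, by rank of signal in the pooled list. The divergent line falls from 61.1% at ranks 1 to 50 to 2.46% at ranks 10561 to 14658, and passes below the tandem line from ranks 1321 to 2640 on.

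With background calls included, 627 of the 1861 divergent regions (33.7%) held a pooled summit, beside 20.9% of all 9010 regions. The full replicate lists gave 614 regions (33.0%) and 644 regions (34.6%), beside 22.6% in each. Tandem regions stood at 18.4% and convergent regions at 15.1% in the pooled list. The other 1234 divergent regions (66.3%) held no pooled summit. The members just inside the threshold were hel-1/C26D10.4 (signal 84.9), hrpf-2/bli-6 (84.4) and eif-3.E/B0511.17 (84.2), and those just outside were Y71G12B.30/chaf-2 (pooled signal 83.6), Y67H2A.2/micu-1 (83.2) and H12C20.7/nhr-68 (82.6).

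The strongest divergent region, on chromosome I, was that of rps-19, which encodes a small-subunit ribosomal protein, and hsr-9, a gene of the DNA damage response related to human 53BP1. Its signal was 2134 in replicate 1, 2777 in replicate 2 and 4889 in the pooled list. The summit lay at 9626079 in an interval of 445 bp, 283 bp from the 5′ end of rps-19 and 162 bp from that of hsr-9. Both replicates were high here, and their summits were at 9626079 and 9626075.

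Next came iff-2, an eIF5A-type translation factor gene, with F54C9.14 on chromosome II. Its signal was 1831 and 2389 in the replicates and 4206 pooled. From the summit it was 68 bp to the 5′ end of iff-2 and 867 bp to that of F54C9.14. It is thus a strong region whose summit lies next to 1 gene of the pair. The region of rpl-12, whose product belongs to the large ribosomal subunit, and lin-54, the DNA-binding member of the DREAM repressor complex, was similar. Its signal was 1906 and 2126 in the replicates and 4010 pooled, with the summit 32 bp from rpl-12 and 361 bp from lin-54.

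At ska-3, a kinetochore gene, and rps-12 on chromosome III the signal was 1635 and 1917 in the replicates and 3535 pooled. This interval is 293 bp long, the summit lay 125 bp from ska-3 and 168 bp from rps-12, and the region also holds a snoRNA gene. At rps-15 and F36A2.9 on chromosome I the signal was 1540 and 1783, with 3311 pooled. Here the summit lay close to the middle, 385 bp from rps-15 and 396 bp from F36A2.9. All 5 regions so far hold a gene of the ribosome or of translation, and in all 5 replicate 2 had the higher signal, as it did in most bound regions.

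The strong regions that follow pair genes of varied roles. On chromosome V, attf-2 and F09G2.2 had a pooled signal of 2476, and this region also holds a snoRNA gene. On III, T27E9.2 and ant-1.1, an adenine nucleotide translocator of mitochondria, had 2458. That region has 3 genes, the third being abcf-2. On IV, F01G4.6 and pfd-1, a subunit of the prefoldin chaperone, had 1920. The next, wapl-1 and htz-1, are genes of chromosome structure, a cohesin release factor and the histone variant H2A.Z, and had 1890. The pair of eef-1A.1, an elongation factor that delivers tRNAs to the ribosome, and rfc-4, a subunit of the clamp loader of DNA replication, had 1499, and its region also holds a miRNA gene.

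Of the other 10 among the 20 strongest, mcrs-1 and atp-1, the alpha subunit of ATP synthase, had a signal of 1364, with the summit 12 bp from atp-1. The pair of pqn-59 and taf-4, a subunit of the general transcription factor TFIID, had 1303. A pair of ribosomal protein genes, rps-14 and rpl-36, had 1266. The trithorax-group gene ash-2 and Y17G7B.20 had 1132. The pair of clsp-1, the claspin homologue, and eef-2, which moves the ribosome along the mRNA, had 1100, with the summit 11 bp from eef-2. Below 1000 stood ndk-1 with F25H2.6 (923), lin-53 with nra-2 (845), drr-2 with set-16 (767), rpl-20 with Y17G9B.5 (747) and K01G5.10 with tasp-1 (653). Of these genes, ndk-1 encodes a nucleoside diphosphate kinase, lin-53 a histone-binding protein of the RbAp48 family and set-16 a histone H3 methyltransferase of the MLL family.

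The replicates shared most bound regions. Of the 131 bound regions, 108 (82.4%) had a summit among the 660 strongest peaks of both replicates, 4 of replicate 1 only, 14 of replicate 2 only and 5 of neither. All 131 had a summit in both full lists, which include background calls. The thresholded list was selected by irreproducible discovery rate, a measure of reproducibility, so agreement between replicates was partly built in. The 10 strongest regions were the same 10 in the thresholded list and in each replicate, and so were the 20 strongest. A further 26 regions were in the top list of a replicate but not in the thresholded list.

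Replicate summits of a bound region lay a median of 15 bp apart, 99 were at most 50 bp apart and the largest offset was 274 bp, over the 108 regions in both top lists. Signal had a Spearman rho of 0.881 between replicates and a Pearson r of 0.973 on the log2 scale (n = 131). These points are regions of the same pair of libraries and were chosen by pooled signal, so the values are a description. Signal was higher in replicate 2 by a median of 0.34 on the log2 scale, with a range of -0.93 to 1.63. The full lists differed in the same direction, with median signals of 15.5 in replicate 1 and 19.8 in replicate 2, so this shift is not particular to the bound regions.

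The largest differences in rank were at weak regions. The region of hel-1, an RNA helicase gene, and C26D10.4 ranked 3652 in replicate 1 (signal 20.6) and 376 in replicate 2 (63.8). The region of cogc-2, a subunit of the Golgi COG complex, and klp-18, a kinesin, ranked 1964 in replicate 1 (24.9) and 409 in replicate 2 (62.1). The region of mtx-1, a metaxin, and dnj-12, a DnaJ chaperone, ranked 232 in replicate 1 (63.7) and 1730 in replicate 2 (33.5). In each of these 3 regions 1 replicate ranked far above the other.

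**Figure D3:**
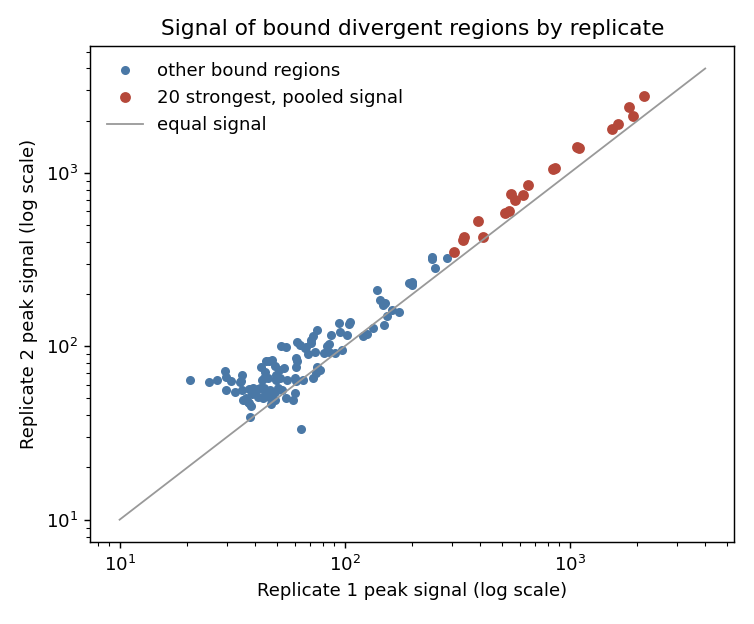
Signal of the strongest peak in each of the 131 bound divergent regions in replicate 1 (x) and replicate 2 (y), both on log axes, with the 20 strongest regions in red and a line of equal signal. The strong regions follow a line just above equality (median log2 difference 0.34), and the weak regions scatter more.

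Within the bound regions, most summits lay between the genes. By the rule, no summit over 200 bp beyond the outer 5′ ends could be counted. The shares below were not set beside the share of bases in each part of a region. Of the 131 strongest summits, 125 (95.4%) were inside the interval and 6 in a flank. Within the interval, 86 of the 125 summits (68.8%) lay between 25% and 75% of the way from the minus-strand to the plus-strand 5′ end. The median position was 53.3% of the way, with quartiles of 34.2% and 68.2%. Neither side was favoured, with 60 summits nearer to the minus-strand gene and 71 nearer to the plus-strand gene.

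The distance to the nearer 5′ end had a median of 157 bp, quartiles of 70 and 219 bp and a range of 1 to 408 bp. In one-way regions the distance to the nearest 5′ end had a median of 290.5 bp over 252 summits, with quartiles of 156.5 and 499 bp. In a divergent region no summit inside the interval can lie over 500 bp from the nearer end, so the distances are not like for like. Within 25 bp of a 5′ end there were 12 summits, within 100 bp 42, and 10 were over 300 bp from both ends. The 87 further regions first reached at pooled ranks 661 to 1320 had 80 summits inside the interval, 49 of them in the same middle stretch, at a median of 118 bp from the nearer end.

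**Figure D4:**
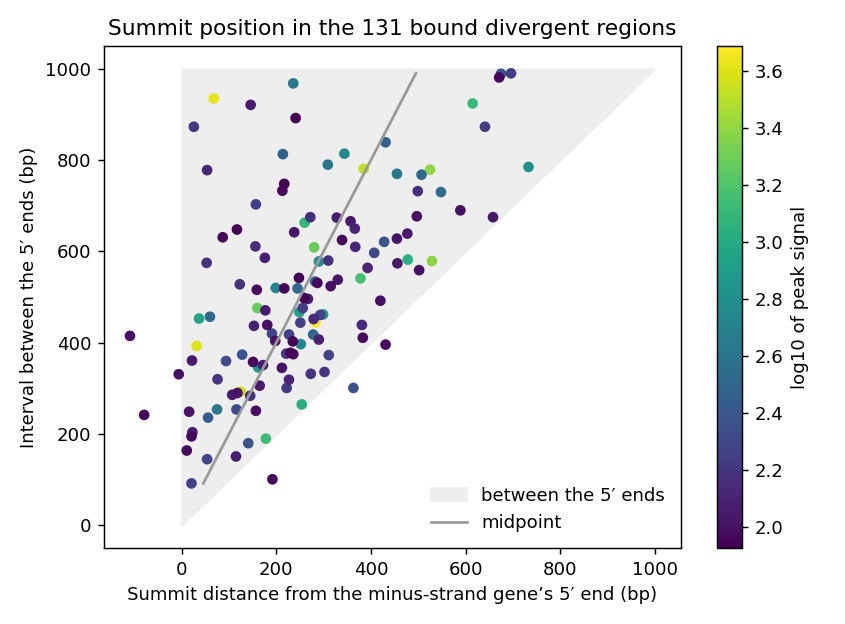
Distance of the summit from the minus-strand gene's 5′ end (x, bp) against the interval between the 5′ ends (y, bp) for the 131 bound regions, coloured by log10 of the signal. Grey marks positions between the 5′ ends, which hold 125 of the points, and the line marks the midpoint.

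The extremes of interval length show the range of arrangements. The shortest bound interval was the 92 bp between ears-2, a glutamyl-tRNA synthetase, and uncp-18, with signal 186 and the summit 21 bp from ears-2. Next came tiar-1, an RNA-binding protein of the TIA family, with lelo-4, at 101 bp and signal 92.4, where the summit lay in the flank 91 bp past the 5′ end of lelo-4. The third was T26A8.4 with pdtf-1, at 145 bp and signal 198. The longest were bath-42 with prp-8, the central protein of the spliceosome (990 bp, signal 176), larp-1 with wip-1 (989 bp, signal 243), and rab-11.1, a GTPase of membrane recycling, with rpl-7 (981 bp, signal 90.9). In these 3 long intervals the summit lay 294, 314 and 310 bp from the nearer gene, the plus-strand one each time.

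Most bound regions had 1 summit, and 5 had 2. The strongest of these 5 was F29B9.11 with jmjd-1.2, a histone demethylase gene (signal 418). The next were R186.8 with lin-46, a gene of the heterochronic pathway that times larval development (signal 164), and cids-2 with phip-1 (signal 155).

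Divergent regions on the autosomes were bound in 3.61% of cases on V (16 of 443), 6.67% on II (23 of 345), 7.58% on IV (25 of 330), 8.96% on I (31 of 346) and 10.6% on III (33 of 312). The X chromosome has only 85 divergent regions, and 3 of them were bound (3.53%). These were sec-15, an exocyst subunit, with C28G1.2 (signal 223, in a region that also holds a tRNA gene), the glutamate receptor gene glr-6 with the ATP synthase gene asg-2 (106), and dnj-14 with glit-1 (91.3). The X carried 131 nuclear summits, of which these 3 regions held 2.29%, while on each autosome divergent regions held between 23.6% and 29.6% of the summits. Both replicates also gave 3 bound regions on X. The lowest autosome, V, had 13 and 14 bound regions in the replicates, and the highest, III, had 37 and 34.

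The bound regions hold 270 genes, 7.2% of the 3749 genes of divergent pairs. For comparison, 558 of all protein-coding genes (2.79%) had a summit from 1000 bp upstream to 200 bp downstream of a 5′ end, and so did 278 of the 16224 genes of no divergent pair (1.71%). Gene lists were set by symbol, and a member counts when its region is bound, whichever gene of the pair lies nearer to the summit. Genes of a like role under other symbols are left out, whether bound or not, so each share holds for the list as set.

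Genes of the cytosolic ribosome were bound most often among the larger lists. Of 83 such genes, 49 are in divergent pairs, and 26 of these 49 (53.1%) lay in a bound region, against 7.2% of all genes of divergent pairs. The replicates gave 29 and 25. The leading members were those described above, from rps-19 down to rps-15. Of the 34 ribosomal protein genes in no divergent pair, 13 (38.2%) had a summit in the window, beside 1.71%. In 10 of the 26 cases the ribosomal protein gene itself was nearest to the summit, as for rpl-12 (32 bp), and in 16 the partner was nearer, as for rps-19. The nearer partner can itself be a ribosomal protein gene, as rps-14 is for rpl-36.

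Translation factors and tRNA synthetases had 8 of 32 in bound regions (25%), with 7 in each replicate. In 7 of the 8 regions the factor was the gene nearest to the summit. The summit was 68 bp from iff-2, 11 bp from eef-2 and 39 bp from eef-1G, a subunit of the elongation factor 1 complex (signal 238). Outside divergent pairs 2 of 39 such genes had a summit (5.13%).

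Chaperones had 12 of 32 in bound regions (37.5%), with 10 and 11 in the replicates, and 3 of 34 outside divergent pairs (8.82%). After pfd-1 the strongest were hsp-60, the mitochondrial chaperonin (signal 289), and the cytosolic chaperonin subunits cct-8 (242) and cct-1 (193). The chaperone was the nearest gene in 3 of the 12 regions. Splicing genes had 8 of 28 (28.6%), led by the spliceosome gene prp-8 (176) and the SR protein gene rsp-7 (153). Genes of secretion and the proton pump had 6 of 23 (26.1%), led by sec-61.B, a subunit of the translocon (435), and the GTPase rab-18 (321). Respiration as listed had 4 of 25 (16.0%), which are atp-1, cox-6B, asg-2 and atp-3. The list leaves out ndua-8, ndub-8 and nduc-2, which lie in bound regions, nduc-2 in that of cox-6B. Unbound genes of this role under other symbols are left out as well. The proteasome had 3 of 22 (13.6%), which are pbs-1 (534), rpn-3 and pbs-2.

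Genes of a pair share a region and are bound together, so the lists were also counted by region, against 7.04% of all regions. Ribosomal protein genes were in 24 bound regions of 46 (exact 95% interval 36.9 to 67.1), chaperones in 12 of 30 (22.7 to 59.4), translation factors in 8 of 33 (11.1 to 42.3), secretion genes in 6 of 23 (10.2 to 48.4) and splicing genes in 6 of 27 (8.62 to 42.3). These 5 intervals lay above the share of all regions. Those of respiration as listed (4.36 to 34.9), the proteasome (2.91 to 34.9) and the mitochondrial ribosomal proteins, with 2 of 27 (0.910 to 24.3), included it. The lists were chosen with earlier results of these data known, and the intervals treat regions as independent. For these and the remaining lists they are thus a description and no test. The 8 splicing genes lie in 6 regions because rsp-1 and rsp-2 form 1 pair, and snr-3 and rsp-5 another. Of the 131 bound regions, 61 hold a gene of these 8 lists, as do 224 of the 1861 regions. Of the 19 regions with 2 such genes, 8 were bound. A further 66 bound regions hold no gene of any list.

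The remaining lists varied. Of the 72 histone genes with a his- symbol 62 are in divergent pairs, and 0 were in a bound region in the thresholded list or in the 660 strongest peaks of either replicate. The list leaves out htz-1, the gene of histone variant H2A.Z, whose region with wapl-1 was bound (1890). With a limit of 3 counts for a count of 0, the 62 genes allow a share of up to 4.84% from counting error only, and the exact 95% interval reaches 5.78%. These genes lie in 31 regions, however, and for 0 of 31 regions the exact interval reaches 11.2%, above the 7.04% of all regions. Histone genes have near-identical copies, and how reads that match several places were treated is not given in the sources used here, so their count is uncertain. Chemoreceptor genes had 1 of 126 (sri-5, 0.794%), or 1 of 107 regions (exact interval 0.0237 to 5.10), below the share of all regions. Collagens as listed had 1 of 25 (col-38, whose partner is rpl-5) and nuclear receptors 2 of 19 (10.5%, nhr-142 and nhr-47). The collagen list took bli-1 and bli-2 but not bli-6, whose region with hrpf-2 was bound (84.4). Germ line genes had 0 of 16, which allows up to 18.75% by the same 3 counts (exact interval up to 20.6%). The synMuv and DREAM list, of chromatin repressors, has 5 genes in divergent pairs, and lin-54, lin-53 and lin-35 were in bound regions. The partner was nearer to the summit in 2 of these 3.

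**Figure D5:**
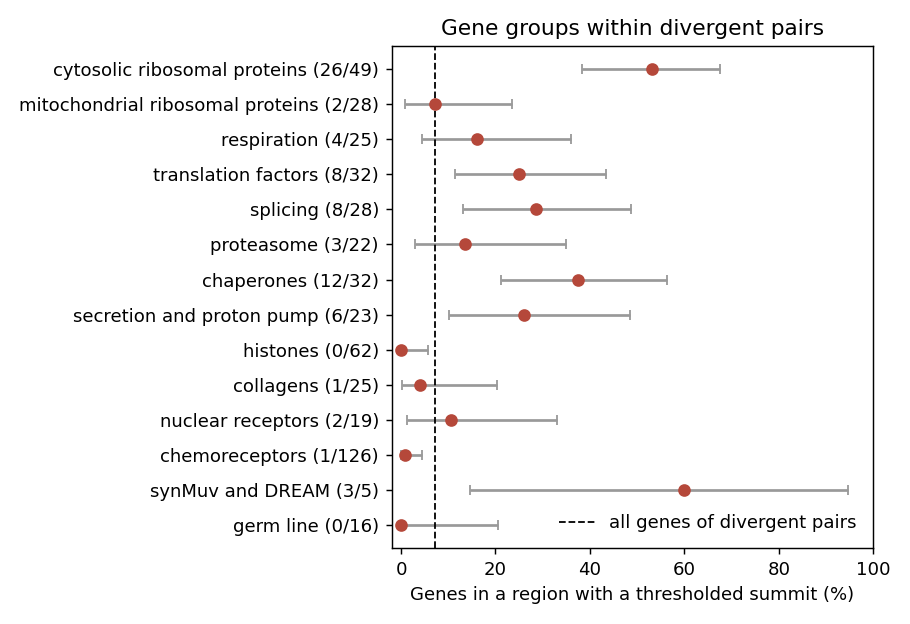
Share of the genes of each list in divergent pairs whose region held a thresholded summit (%), with exact 95% intervals that treat genes as independent and the counts beside each name. The dashed line is the 7.2% of all genes of divergent pairs, with cytosolic ribosomal proteins at 53.1%, chaperones at 37.5% and histones (his- symbols only) at 0.

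A few divergent regions also hold a gene for a small RNA. There are 28 regions with a tRNA, snoRNA, snRNA or miRNA gene, and 11 were bound (39.3%), against 120 of the other 1833 (6.55%). By class these were 7 of 12 regions with a snoRNA gene, 2 of 5 with a tRNA gene, 1 of 6 with an snRNA gene and 1 of 5 with a miRNA gene. Among the 5 strongest regions of all, only ska-3/rps-12 holds such a gene. These regions overlap with those of ribosomal protein genes. Of ribosomal protein genes in divergent pairs, 26 of 49 were in bound regions, and 20 of 41 with the 28 regions left out. The part of small RNA genes in the peak signal was not tested.

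Summits of bound regions were rich in G and C. In 100 bases around the summit GC content had a median of 50%, with quartiles of 46% and 53%. It was 33% at the midpoints of the 1234 divergent regions with no pooled summit and 37% at the midpoints of the bound regions. Over whole regions the medians were 37.5% for bound regions and 35.1% for regions with no pooled summit, a smaller difference than at the summits. One-way summits had 51% and other nuclear summits 50%.

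The word ACGCAG, counted on both strands, was in 22 of the 131 summit windows (16.8%, 95% interval 10.8 to 24.3). It was in 3.24% of the midpoint windows of regions with no pooled summit and in 2.82% of the 100 bases before every annotated 5′ end. Summits in one-way regions held it in 19.8% of cases and other nuclear summits in 16.1%, so its share at divergent regions lay within the range of the other summits. The share was 19.2% at replicate 1 summits and 16.9% at replicate 2 summits. It was 18.2%, 20.5% and 11.6% in the regions ranked 1 to 44, 45 to 88 and 89 to 131 by signal. As the word was known from earlier results of these data, these counts and the densities below are a description and no test.

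Within the bound regions ACGCAG lay close to the summit. It occurred 2.12 times per kb within 50 bp of the summit, 0.840 from 51 to 100 bp, 0.155 from 101 to 200 bp and 0.198 further away, and 0.253 per kb in regions with no pooled summit. The words ACGCGC and CGAGAG were in 15.3% and 14.5% of summit windows, against 3.48% and 2.59% of midpoints of regions with no pooled summit. TATAAA went the other way, with 5.34% of summit windows against 14.3% of those midpoints. Its density was 0.605 per kb within 50 bp of the summit and 1.86 per kb from 101 to 200 bp. As the first 3 words are rich in G and C and TATAAA is not, these counts move with base composition, and their part was not tested apart from it.

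Longer shared words were found at some of the strongest regions. Of all 12-base words, 10 were in at least 5 of the 131 windows, and after leaving out words that shared 8 or more bases with a kept one, 3 remained. They were chosen after seeing the windows, so no count of them over these windows is a test. The lines below show each word in capitals with 10 bases on either side, on the strand that carries the word. Up to 4 regions of each word are printed, by falling signal. The regions rps-19/hsr-9, clsp-1/eef-2, lin-53/nra-2 and zip-4/nol-58 are not printed, although each had a higher signal than a region printed for the same word.
iff-2/F54C9.14 chrII:8561404-8561435 minus strand: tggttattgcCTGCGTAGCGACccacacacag
rpl-12/lin-54 chrIV:13240656-13240687 minus strand: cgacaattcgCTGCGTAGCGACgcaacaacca
attf-2/F09G2.2 chrV:7196645-7196676 plus strand: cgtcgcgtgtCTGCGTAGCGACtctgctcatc
rps-14/rpl-36 chrIII:7179832-7179863 minus strand: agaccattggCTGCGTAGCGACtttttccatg
F01G4.6/pfd-1 chrIV:11149776-11149807 plus strand: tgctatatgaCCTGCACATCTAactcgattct
eef-1A.1/rfc-4 chrIII:6972081-6972112 plus strand: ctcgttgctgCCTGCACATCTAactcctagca
Y17G7B.20/ash-2 chrII:11980303-11980334 plus strand: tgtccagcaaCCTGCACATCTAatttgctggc
pbs-1/K08D12.3 chrIV:1709932-1709963 plus strand: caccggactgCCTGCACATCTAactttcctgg
wapl-1/htz-1 chrIV:4445875-4445906 minus strand: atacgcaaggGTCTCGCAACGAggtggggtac
F29B9.11/jmjd-1.2 chrIV:4660455-4660486 minus strand: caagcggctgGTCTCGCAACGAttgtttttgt
hsp-110/rpn-3 chrIII:8447149-8447180 minus strand: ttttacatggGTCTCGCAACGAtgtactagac
eef-1B.1/aco-2 chrIII:7973325-7973356 minus strand: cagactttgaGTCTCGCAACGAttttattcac
The first 6 bases of CTGCGTAGCGAC are the reverse complement of ACGCAG, and the other words do not contain it.

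CTGCGTAGCGAC was in the windows of 5 bound regions, all among the 13 strongest, and in 5 windows in each replicate. The fifth, besides those printed, is rps-19/hsr-9, the strongest of all. The nuclear genome holds 7 copies of this word, counted on both strands, of which 5 lie within 50 bp of a thresholded summit and 6 in divergent regions. The copy in a divergent region without a summit nearby is at iff-1/cdk-1, where iff-1 is the paralogue of iff-2. No window of a one-way or other nuclear summit held the word.

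CCTGCACATCTA was in 7 bound regions, 4 of them among the 20 strongest. Of its 40 nuclear copies, 13 lie within 50 bp of a thresholded summit, and all 7 copies in divergent regions do. It was also in the windows of 5 one-way summits and 1 other. GTCTCGCAACGA was in 8 bound regions and has 208 nuclear copies, of which 11 lie near a thresholded summit. Of its 21 copies in divergent regions, 7 are in regions with no pooled summit. At least 1 of the 3 words was in 11 of the 20 strongest regions (55.0%) and in 9 of the other 111 (8.11%), a description, as the words were drawn from the same windows.

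The annotated 5′ ends of the bound regions more often followed a splice acceptor sequence. TTTCAG, a splice acceptor consensus, directly preceded 98 of 383 5′ ends in bound regions (25.6%). It preceded 556 of 4308 ends in divergent regions with no thresholded summit (12.9%) and 11.5% of all ends. AG alone preceded 47.5%, 27.1% and 26.3%. Several ends of 1 gene are counted apart and some lie within a few bases of each other. Where a 5′ end is an acceptor, the distance from the summit to it is not the distance to the place where transcription starts.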

How the data were processed

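ChIP-seq peak lists of 1 group of 2 biological replicates were analysed. Per the deposited description file, the authors supplied a list per replicate, a pooled list, both with background calls, and a list thresholded by irreproducible discovery rate. The ce11 lists were used, and those on ce10 were not, since no coordinate was converted. Columns follow the narrowPeak layout. Signal is the value the authors deposited for each peak, and whether it is relative to the control is not stated. The deposited −log10 q-value was not used. Which aligner, peak caller and threshold were used is not given in the sources used here. The depth of reads is unknown, and no interval or limit rests on it, so the spread between replicates measures only these 2 samples.

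Summits were read from the deposited offset and positions count from 1 on ce11, the same sequence as WBcel235. Genes came from Ensembl release 115, with every annotated transcript of a protein-coding gene giving a 5′ end, and sequence from the RefSeq copy of the genome. Tandem and convergent regions used gaps of 1 to 1000 bp between neighbouring gene records plus 200 bp on each side, and left out those that overlap a divergent region (convergent also where they overlap a tandem one). One-way regions took 1000 bp upstream and 200 bp downstream around the other 5′ ends. Position was measured in the shortest interval between paired 5′ ends that holds the summit, or else at the pair with the nearest end, and 623 regions have several end pairs. Replicates were compared through their 660 strongest peaks.

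The regions, gene lists and the word ACGCAG were chosen with earlier results of these data known. Named genes are those of the 20 strongest regions, the 3 with most summits, the 3 strongest without a thresholded summit, the 3 with the largest rank gap between replicates, the 3 shortest and 3 longest bound intervals, up to 4 bound members of each list by signal, zfp-2 and unc-119. The weakest bound regions, the bound regions on X, those sharing 12-base words and ndua-8, ndub-8 and nduc-2 were named after their values were seen. Alternatives changed the pair distance, flank, 5′ ends, threshold, overlap rule, window and replicate. Scripts were tested on simulated data. Software was Python 3.11.15 with pandas 2.3.3, numpy 2.4.6, matplotlib 3.10.9 and scipy 1.17.1.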

Additional observations from a re-analysis of the deposited data

How the results depend on the processing

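The share of divergent regions with a summit was 6.82% with pairs up to 500 bp apart, 6.83% up to 2000 bp, 6.71% with no flank, 7.16% with 1 5′ end per gene, 7.15% with peak overlap, 4.41% with the 330 strongest peaks, 33.7% with the pooled list, and 6.99% with either replicate left out. Both replicates gave the same count, so even a small shift exceeded their spread. Chosen after seeing the data, coding transcripts only gave 7.02% and regions without small RNA genes 6.55%. The ratio to tandem regions was 4.97, ran from 4.52 to 5.68 over the settings on thresholded or strongest peaks, and was 1.83 in the pooled list. The share of nuclear summits in divergent regions was 10.6% up to 500 bp, 29.6% up to 2000 bp, 20.2% with no flank, 20.2% with 1 5′ end per gene, 26.6% with the 330 strongest peaks, 4.89% with the pooled list, 19.3% without small RNA genes and 20.5% to 21.03% with a replicate left out. The median position was 57.4% in regions with a single pair of 5′ ends and 52.2% to 54.1% with a replicate left out. Presence in both replicates was 52.7% with the 330 strongest peaks of each and 100% with the full lists. ACGCAG was in 22.9% of 200-base windows, 19.5% of the 330 strongest and 16.9% to 19.2% with a replicate left out. In the pooled list, which includes background calls, the bound shares were 91.8% for cytosolic ribosomal proteins, 71.4% for mitochondrial ribosomal proteins, 64.0% for respiration, 53.1% for translation factors, 75% for splicing, 59.1% for the proteasome, 71.9% for chaperones, 65.2% for secretion, 12.9% for histones, 11.1% for chemoreceptors and 100% for the synMuv list. With the 330 strongest peaks mitochondrial ribosomal proteins and nuclear receptors had 0 bound, and up to 500 bp collagens and chemoreceptors had 0 and the synMuv list 3 of 3 (100%). The cause of these shifts was not tested, beyond the number of peaks or regions each setting keeps. No paired analysis was possible because the design has 1 group.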
